A study of Mus musculus with 27 samples.

Results

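Replication-dependent histone genes supply the histone proteins that wrap newly copied DNA. The members described here are the 65 genes of the deposited count table whose Ensembl identifier carries a symbol starting Hist1h to Hist4h in GENCODE M21, out of 20446 genes in the table. They encode the linker histone H1 (6 genes) and the core histones H2A (18), H2B (16), H3 (12) and H4 (13). A further 5 symbols of this pattern (Hist1h2aj, Hist1h2al, Hist1h2bh, Hist1h2bm and Hist3h2bb-ps) are not analysed here.

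C2C12 is a line of mouse myoblasts, muscle precursor cells that join into multinucleate myotubes in medium low in serum. Cells were grown in 10% FBS, differentiated in 2% horse serum and given 50% horse serum for 2 h to set their clocks in step, and total RNA was taken every 6 h from 12 to 60 h afterwards, with 3 libraries at each of 9 time points. All 27 libraries are of 1 cell line and received the pulse, so there is no unpulsed group. The labels do not say if the libraries of a time point are of separate cultures, and p-values here measure only the spread among them, possibly technical spread. Depth was 15187400 to 26615773 counts per library. The myotube marker list (11 genes, among them Ckm, Acta1 and Ttn) summed to 18384 to 21578 CPM (reads of the gene over all reads of the library, scaled to a common total) per library, so the label fits its markers. The fibroblast list (Col1a1, Col1a2, Pdgfra, Dcn and Thy1, the last at 0 reads) summed to 2517 to 4908 CPM, the immune list to 0.936 to 2.58, the endothelial list to 0.438 to 1.55 and the adipocyte list to 0 to 0.131 CPM.

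Most metazoan histone messages of this family are made in S phase, when DNA is copied. Unlike almost all other messages they end in a conserved stem-loop rather than a poly(A) tail. The stem-loop is bound by SLBP, and the message is destroyed when DNA synthesis stops. Their genes lie in clusters, many have no intron, and several code for the same protein. Libraries made by removing ribosomal RNA keep such transcripts, whereas selection on poly(A) loses most of them. Myotubes have left the cell cycle, while unfused cells of such a culture can still divide. In RNA from a whole culture, fewer expressing cells and less RNA per cell cannot be told apart.

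The stem-loop is the feature that the messages share, so 1 example of each form is shown. A stem of 6 bases around a loop of 4 was searched for after the stop codon in the longest GENCODE M21 coding transcript on mm10. The stem had to pair without a mismatch and to begin with GG, so the shared GG was set by the search. In all, 43 members held one, 24 to 61 bases past the stop codon. In 15 other members the model ends before a stem-loop could be read. In the model of 7 (Hist1h1a, Hist1h2bc, Hist1h2bp, Hist1h2bq, Hist1h2br, Hist2h2be and Hist2h3b) none of this kind was found. There were 8 forms. Capitals mark the stem-loop, with 5 bases on each side in lower case, as DNA.
Hist1h1c (H1, form of 23 members): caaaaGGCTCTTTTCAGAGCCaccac
Hist1h4d (H4, form of 7 members): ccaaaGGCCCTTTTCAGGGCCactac
Hist1h3c (H3, form of 6 members): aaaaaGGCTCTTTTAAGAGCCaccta
Hist1h4i (H4, form of 2 members): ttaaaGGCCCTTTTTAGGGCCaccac
Hist1h4b (H4, form of 2 members): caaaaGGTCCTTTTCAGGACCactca
Hist1h4a (H4, form of 1 member): ccaaaGGCCCTTCTCAGGGCCgccca
Hist1h3g (H3, form of 1 member): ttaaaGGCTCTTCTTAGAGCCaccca
Hist2h2ac (H2A, form of 1 member): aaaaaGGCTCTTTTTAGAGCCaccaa

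The stem differed by type. All 12 H4 members with a stem-loop in the model had a stem of GGCCCT or GGTCCT, and all 31 members of the other types had GGCTCT. The model of 22 members runs on for more than 100 bases past the stem-loop, and that of 8 for more than 1000, the longest being Hist1h1d with 4884. Such long models dilute a level given per exon length.

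Promoters also differed by type. Sequences came from RefSeq (GRCm38.p6), which matched 64 members and held a window of 300 bases (250 before and 50 after the start) for 59. Letters were searched on both strands, no motif contains another, and 32791 other RefSeq promoters gave the background. CCAAT stood in all 47 promoters of H1, H2A, H2B and H3, in 25.0% of 12 H4 promoters and in 37.3% of the others. GGTCCG, the letters of an H4 element, stood in 91.7% of H4 promoters against 8.23%. AAACACA, the H1 box, stood in 83.3% of 6 H1 promoters against 7.17%. The octamer ATTTGCAT stood in 41.2% of 17 H2A and 42.9% of 14 H2B promoters against 1.70%. TATAAA stood in 59.3% of the 59 against 13.5%. A match describes letters and is not a measured binding site. The upstream 250 bases are shown for 2 H1 genes and the H3 gene called as rising along the course with all libraries. The rising call of this H3 gene, Hist1h3c, was lost in 23 of 43 alternative settings. The H4 gene with the most reads is also shown, and motif letters are in capitals.
Hist1h1c, chr13:23738557-23738806, plus strand: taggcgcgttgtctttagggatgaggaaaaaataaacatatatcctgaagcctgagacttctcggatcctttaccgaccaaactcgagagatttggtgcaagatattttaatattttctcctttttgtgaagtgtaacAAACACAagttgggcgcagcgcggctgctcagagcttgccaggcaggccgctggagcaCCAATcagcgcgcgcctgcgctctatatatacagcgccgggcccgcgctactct
Hist1h1e, chr13:23622559-23622808, minus strand: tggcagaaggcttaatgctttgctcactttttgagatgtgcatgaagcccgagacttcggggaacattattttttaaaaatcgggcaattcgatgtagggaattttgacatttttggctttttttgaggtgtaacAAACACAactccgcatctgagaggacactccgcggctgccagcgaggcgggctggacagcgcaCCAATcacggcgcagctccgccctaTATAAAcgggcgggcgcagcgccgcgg
Hist1h3c, chr13:23745522-23745771, minus strand: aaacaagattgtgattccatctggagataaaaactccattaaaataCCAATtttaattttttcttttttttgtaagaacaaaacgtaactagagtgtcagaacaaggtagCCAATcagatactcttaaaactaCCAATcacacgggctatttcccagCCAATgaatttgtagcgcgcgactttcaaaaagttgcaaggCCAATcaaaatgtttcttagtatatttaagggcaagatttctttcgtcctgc
Hist1h4d, chr13:23581318-23581567, plus strand: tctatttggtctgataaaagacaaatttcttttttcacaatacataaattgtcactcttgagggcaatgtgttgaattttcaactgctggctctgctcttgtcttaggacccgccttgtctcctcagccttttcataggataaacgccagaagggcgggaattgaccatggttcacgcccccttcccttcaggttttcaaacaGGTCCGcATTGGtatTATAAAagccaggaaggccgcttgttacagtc

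Genes of H2A and H2B often stand back to back and share the bases between them. There were 12 such pairs among the members, with 176 to 306 bases between the gene starts in GENCODE M21. The stretch between the RefSeq starts is shown for 2 pairs whose H2B gene was called as changed over the course with all libraries. The call of Hist1h2bn was lost in 2 of 40 alternative settings and that of Hist1h2bk in 19. Both stretches are read on the plus strand, with CCAAT, ATTTGCAT or their reverse complements in capitals.
Hist1h2ak and Hist1h2bn, chr13:21753913-21754075: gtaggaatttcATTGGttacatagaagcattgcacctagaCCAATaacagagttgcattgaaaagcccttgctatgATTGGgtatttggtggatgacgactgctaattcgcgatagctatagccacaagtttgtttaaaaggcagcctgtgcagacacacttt
Hist1h2ah and Hist1h2bk, chr13:22035644-22035820: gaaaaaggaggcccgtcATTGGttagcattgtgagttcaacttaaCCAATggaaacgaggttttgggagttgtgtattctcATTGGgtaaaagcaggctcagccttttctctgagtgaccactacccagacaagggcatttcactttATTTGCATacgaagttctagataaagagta

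The 65 members code for few different proteins. All 13 H4 genes code for 1 protein of 103 residues. The 12 H3 genes code for 3 proteins: 7 genes share 1 sequence of 136 residues, 4 (Hist1h3a, Hist1h3g, Hist1h3h and Hist1h3i) share another that differs from it by 1 residue, and the model of Hist2h3c1 is longer, with 181. The 18 H2A genes gave 9 proteins, 9 genes sharing 1 of them, and the 16 H2B genes gave 9. The 6 H1 genes code for 6 different proteins. Near-identical genes share reads: 30 of 65 members had under 50% of their exonic windows of 50 bases unique among all GENCODE transcripts, and 8 had under 10%. The median unique share was 98.9% for H1, 60.5% for H4, 53.1% for H2B, 42.8% for H3 and 26.99% for H2A. How reads that fit several copies were counted is not given in the sources used here, so the levels of single copies are uncertain.

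The split of reads between such copies set 6 libraries apart: replicate 3 of 12 h and 18 h, and replicate 2 of 42, 48, 54 and 60 h. The pairs and libraries were singled out after their values were seen, and these values are given with no test. In each of 4 pairs of near-identical genes, these 6 libraries gave 1 copy a larger share of the pair than any of the other 21 did. No coding base differed within a pair over the length compared. The model of Hist2h3c1 has 543 coding bases, and only its last 408 were set against the 408 of Hist2h3c2. Hist2h3c2 took 56.0% to 64.6% of the summed CPM of Hist2h3c2 and Hist2h3c1 in the 6 libraries and 24.1% to 38.2% in the 21. Hist1h2bq took 74.6% to 80.1% of its pair with Hist1h2br in the 6 and 30.0% to 48.5% in the 21. Hist2h2aa2 took 32.05% to 42.4% against 7.51% to 18.8% of its pair with Hist2h2aa1, and Hist1h2ap took 40.9% to 57.0% against 9.59% to 33.8% of its pair with Hist1h2ao. The pair sums overlapped, but their medians differed. Hist2h3c2 and Hist2h3c1 together had 24.6 to 35.1 CPM in the 6 libraries (median 30.9) and 18.1 to 33.7 in the 21 (median 23.3). The median sum was 11.4 against 6.43 CPM for the pair of Hist1h2bq and 4.73 against 3.78 for that of Hist1h2ap. For the pair of Hist2h2aa2 it was lower in the 6, 13.9 against 16.9. Levels of these 8 genes are given in the text only as sums, and counts of calls are given with and without the 6 libraries. The cause of the split was not tested.

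**Figure D1:**
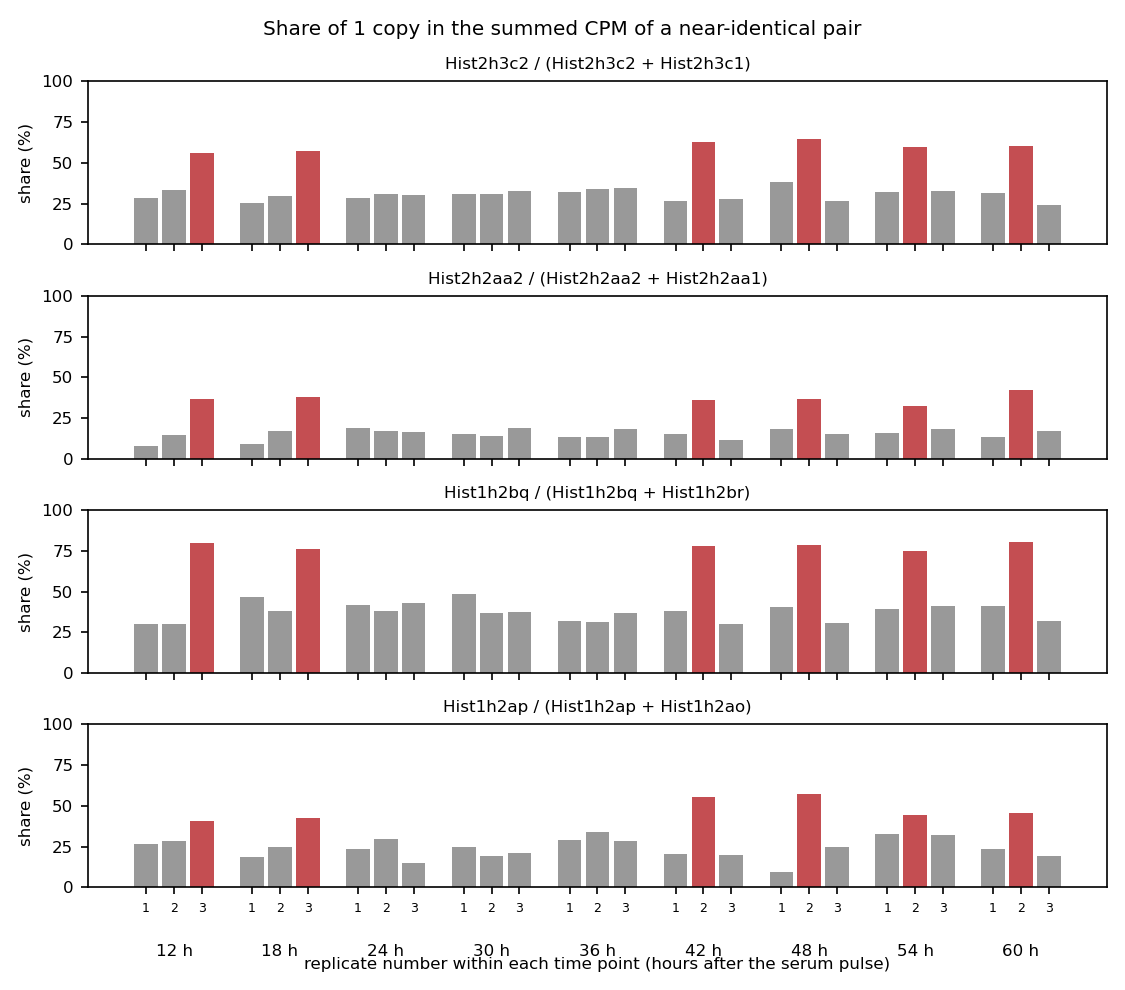
Share (%) of 1 gene in the summed CPM of a near-identical pair, by library, for 4 pairs; red bars are replicate 3 of 12 and 18 h and replicate 2 of 42 to 60 h. Each red bar stands above all grey bars of its panel, for example 56.0% or more against 38.2% or less for Hist2h3c2.

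Histone messages made up a small part of the RNA. The members held 1486168 of 574569680 reads, 0.259% of all. CPM below are scaled by TMM, a factor per library that evens out composition. The summed histone CPM was lowest, 1926, in replicate 3 of 12 h and highest, 3509.6, in replicate 3 of 36 h. The 12 h libraries had 2073, 2389 and 1926 CPM in all, and those of 24 h had 2088, 2352 and 2075. The 36 h libraries had 2543, 3132 and 3509.6, and those of 60 h had 2494, 2842 and 2292. The 36 h libraries were all above those of 12 h and 24 h, and the 12 h and 60 h libraries overlapped. The mean was 2129 ± 237 CPM at 12 h and 2171 ± 156 at 24 h (SD, n = 3). It was 3061 ± 487 CPM at 36 h and 2543 ± 278 for the last hour (SD, n = 3). The ratio of 60 h to 12 h was 1.19 ± 0.186 (SD carried from both groups), and 1.07 without the 6 libraries. A sum over chosen members gets no test here.

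Most members were high or low in the same libraries. At 30 h, replicate 1 had the lowest CPM of its time point for 62 of the 63 tested members, and at 18 h replicate 1 for 57. At 54 h, replicate 2 was the highest for 54, and at 36 h replicate 3 for 53. The summed CPM at 30 h was 2024, 3019.6 and 2812, and at 18 h 1986, 2873 and 2702, so libraries of 1 time point differed by up to 1.49-fold. The highest mean fell at 36 h for 46 of the 63 and at 54 h for 10, and the lowest mean at 12 h for 28 and at 24 h for 28. Many members share reads, so these counts are not of independent genes. The same counts were not made over all genes.

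**Figure D2:**
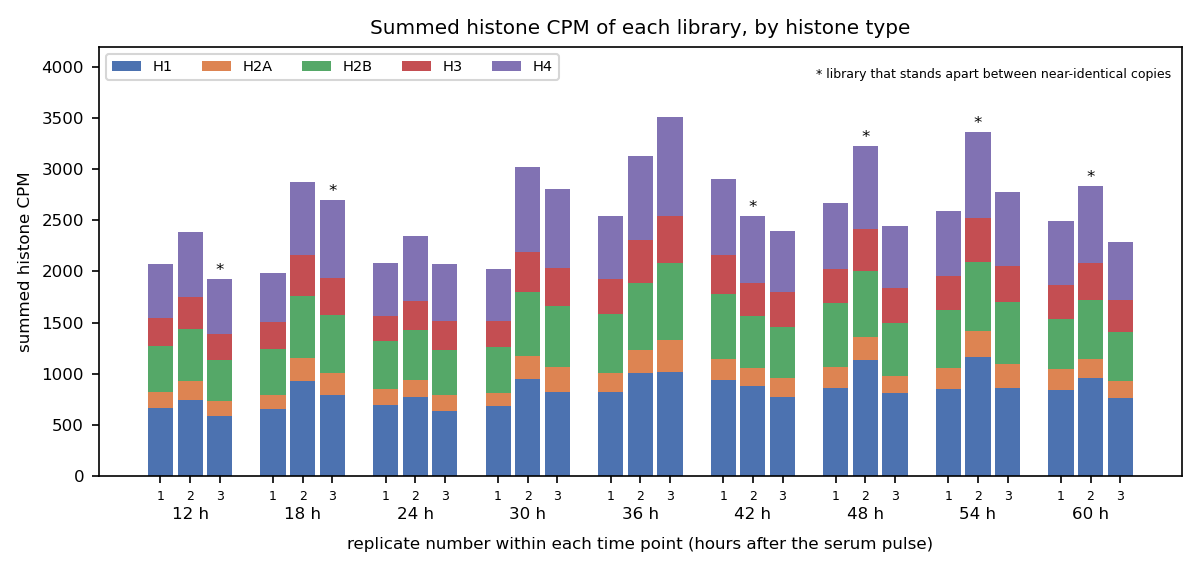
Summed histone CPM of each of 27 libraries, 3 at each time point, with bar parts for H1, H2A, H2B, H3 and H4; stars mark the 6 libraries that stand apart between near-identical copies. The sum runs from 1926 CPM at 12 h to 3509.6 CPM at 36 h, and H1 is the largest part and H2A the smallest in every time point mean.

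**Figure D3:**
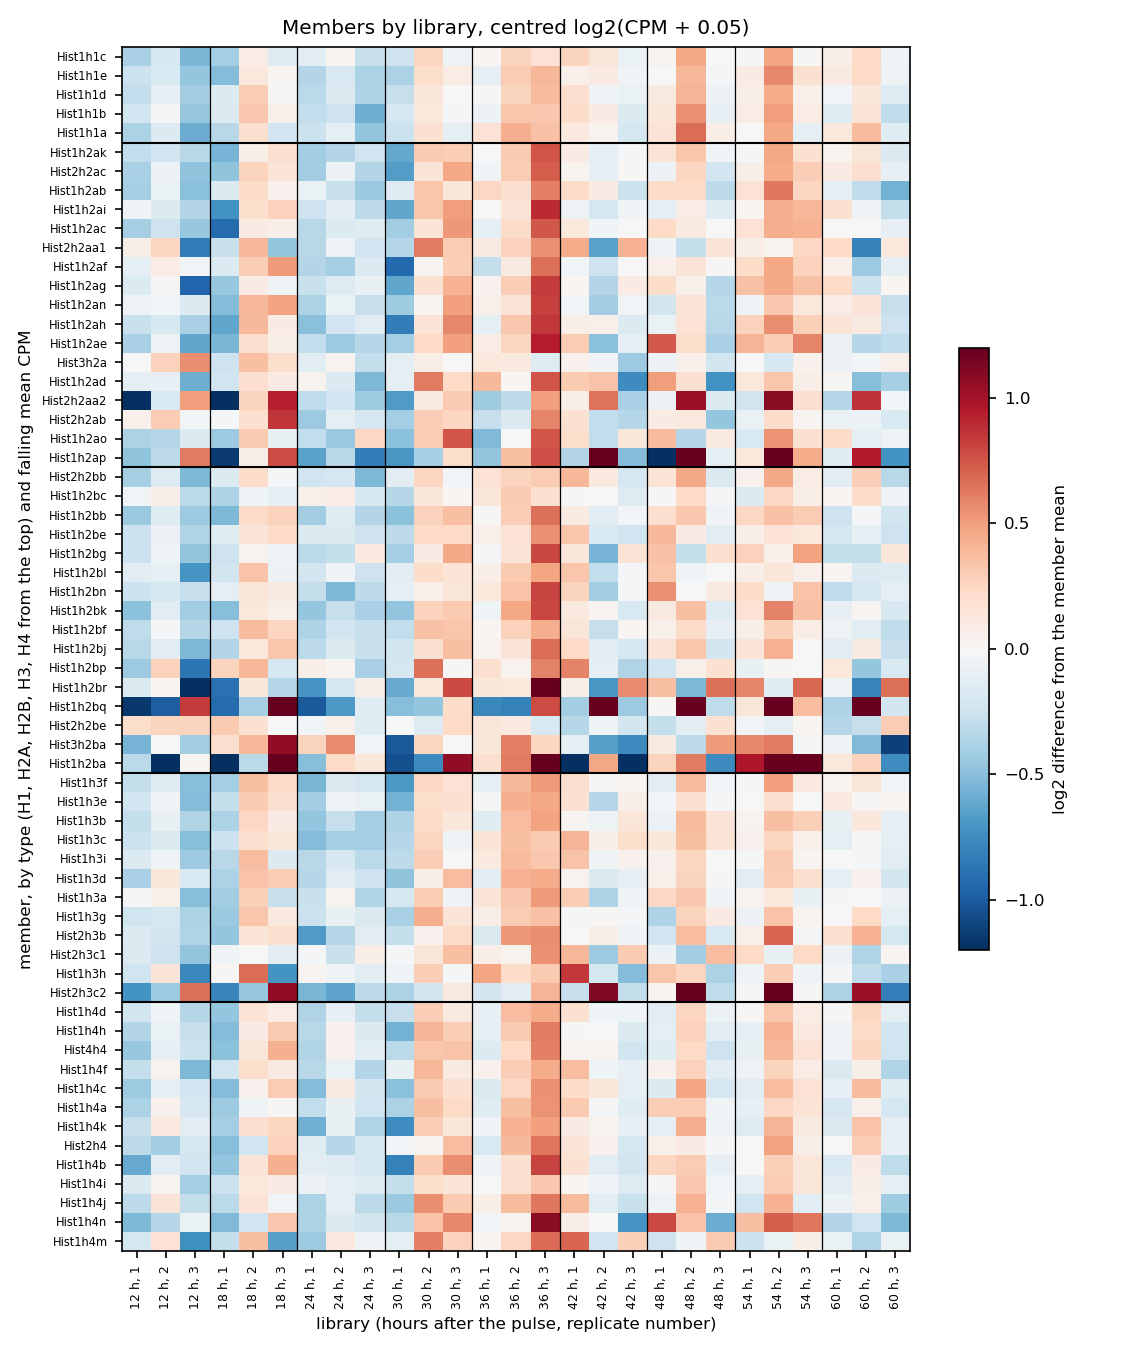
Difference of each of 63 members (rows, by type) from its own mean on the log2(CPM + 0.05) scale in 27 libraries (columns, by time point and replicate); the colour scale ends at 1.2 in each direction. Most rows share the colour of their column, with replicate 1 of 18 h and 30 h low and replicate 3 of 36 h high, while Hist2h2aa2, Hist1h2ap, Hist1h2bq and Hist2h3c2 follow the 6 libraries.

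The 5 types kept their order by share of the pool in every time point mean. H1 took 32.2% ± 1.62 of the histone CPM (SD over 27 libraries), H4 25.8% ± 1.24, H2B 21.3% ± 0.891, H3 13.1% ± 0.554 and H2A 7.54% ± 0.582. At 12 h H1 took 31.1% ± 0.757 and at 60 h 33.6% ± 0.364 (SD, n = 3), the extremes of H1 over all libraries being 28.9% and 35.2%. Levels can be compared between genes only per length. Per kilobase of exon, H4 had 29.6% of the pool, H2B 28.6%, H1 16.2%, H3 14.1% and H2A 11.5%. Summed over members, this was 1025 CPM per kilobase of exon for H4, 990.3 for H2B, 559 for H1, 488 for H3 and 399 for H2A, and per kilobase of coding sequence the order was the same. How reads that fit several copies were counted is not known, so the shares of types with few unique windows are uncertain too. The median unique share was 98.9% for H1, but 42.8% for H3 and 26.99% for H2A.

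By cluster, the 52 Hist1 genes on chromosome 13 held 85.5% of the histone CPM, the 10 Hist2 genes on chromosome 3 held 11.1%, Hist4h4 on chromosome 6 held 3.20% and the 2 Hist3 genes on chromosome 11 held 0.211%. Hist1 is split into blocks by gaps of over 100 kb. A block of 28 genes at chr13:23531050-23764406, which includes all H1 genes but Hist1h1b, held 67.2%. A block of 17 at chr13:21715763-21837530 held 15.3%, and 5 genes at chr13:22035164-22043676 held 3.00%. The pair Hist1h2ba and Hist1h2aa, known as testis forms, held 0.0132%. Over the 27 libraries the share ran from 84.3% to 86.3% for Hist1, from 10.3% to 12.2% for Hist2 and from 0.139% to 0.382% for Hist3.

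H1, which binds the linker DNA between nucleosomes, had the most reads. Hist1h1c led with a mean of 306 CPM. Its CPM were 229.9, 264 and 206 at 12 h, 307, 362 and 339.8 at 36 h, and 317, 356 and 290.5 at 60 h. All 60 h libraries stood above all 12 h libraries. Hist1h1e had 160.3, 168 and 139 at 12 h, 178, 236 and 253 at 36 h, and 207, 226 and 183 at 60 h, again without overlap between the first and last hour. Hist1h1d had 125, 144 and 116 at 12 h, 155, 185 and 200.5 at 36 h, and 150.4, 169.6 and 138 at 60 h, where the groups overlapped. Hist1h1t, the testis H1, was too low to test, with 0 to 0.351 CPM and a median of 0.107.

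Among H2B genes Hist2h2bb had the highest level of any member per kilobase of exon, 426 CPM. Per kilobase of coding sequence it had 429, and Hist1h1c (481) and Hist1h4d (479.6) stood above it. Hist2h2bb had 121, 143 and 109.8 CPM at 12 h, 179, 191 and 197 at 36 h, and 146, 196 and 127 at 60 h. Its 12 h and 60 h libraries overlapped. Hist1h2bc had 101, 109.7 and 82.9 CPM at 12 h, 114, 129 and 119 at 36 h, and 106, 121 and 101 for the last hour. Hist1h2bb had 43.8, 54.0 and 43.9, then 59.99, 73.3 and 94.2, and last 50.3, 58.5 and 51.2. In both, the 36 h libraries lay above those of 12 h and the 60 h libraries overlapped them. Of the H2A genes, which pair with H2B in the nucleosome, Hist1h2ak led with 33.7, 35.1 and 32.8 CPM at 12 h, 41.4, 51.4 and 69.7 at 36 h, and 42.6, 45.8 and 36.6 at 60 h. Hist2h2ac followed with 21.2, 26.3 and 19.8 CPM at 12 h, 26.8, 34.2 and 45.7 at 36 h, and 29.6, 31.8 and 25.9 at 60 h. The 60 h libraries of Hist1h2ak stood above those of 12 h, and those of Hist2h2ac overlapped them. In the 11 back-to-back pairs with both genes tested, H2B had the higher level per exon length in 6 and per coding length in 8. The pairs whose order changed between these lengths were Hist1h2bq with Hist1h2ao and Hist1h2br with Hist1h2ap. All of these genes are near-identical copies whose single levels are uncertain. The ratio of H2B to H2A per exon length ran from 0.0176 (Hist2h2be and Hist2h2ac) to 15.4 (Hist1h2bc and Hist1h2ac), and per coding length the same pairs had 0.0906 and 7.41. Shared upstream bases went with unequal levels in either direction.

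H3 and H4 form the core tetramer. Hist1h3f had 45.0, 49.8 and 38.5 CPM at 12 h, 50.8, 71.95 and 78.2 at 36 h, and 56.4, 60.7 and 53.6 at 60 h. Hist1h3e had 43.8, 49.7 and 35.7 at 12 h, 50.8, 69.1 and 70.8 at 36 h, and 55.7, 51.8 and 52.2 at the end. Hist1h3b had 37.8, 43.4 and 35.9, then 41.8, 59.8 and 64.4, and last 43.3, 50.8 and 43.2. The last hour lay above the first without overlap for Hist1h3f and Hist1h3e but not for Hist1h3b. The 7 genes of the commonest H3 protein summed to 243 CPM and the 4 genes of the other to 82.2. Per exon length the second form had 0.448 to 0.701 of the level of the first over the 27 libraries. From the mean levels this ratio was 0.588 per exon length and 0.338 per coding length. The first form includes Hist2h3c2, whose reads are split as above, and neither form includes its near-identical copy Hist2h3c1. Hist1h4d had 125, 142 and 115 CPM at 12 h, 137, 189.6 and 199 at 36 h, and 147, 175 and 135 at 60 h. Hist1h4h had 75.5, 91.1 and 79.4 at 12 h, 89.7, 120.1 and 149 at 36 h, and 93.4, 113 and 82.3 at 60 h. Hist4h4, alone on its chromosome, had 59.5, 76.4 and 68.1 at 12 h, 73.0, 96.6 and 124 at 36 h, and 78.7, 97.5 and 69.0 at 60 h. The first and last hours of all 3 overlapped.

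**Figure D4:**
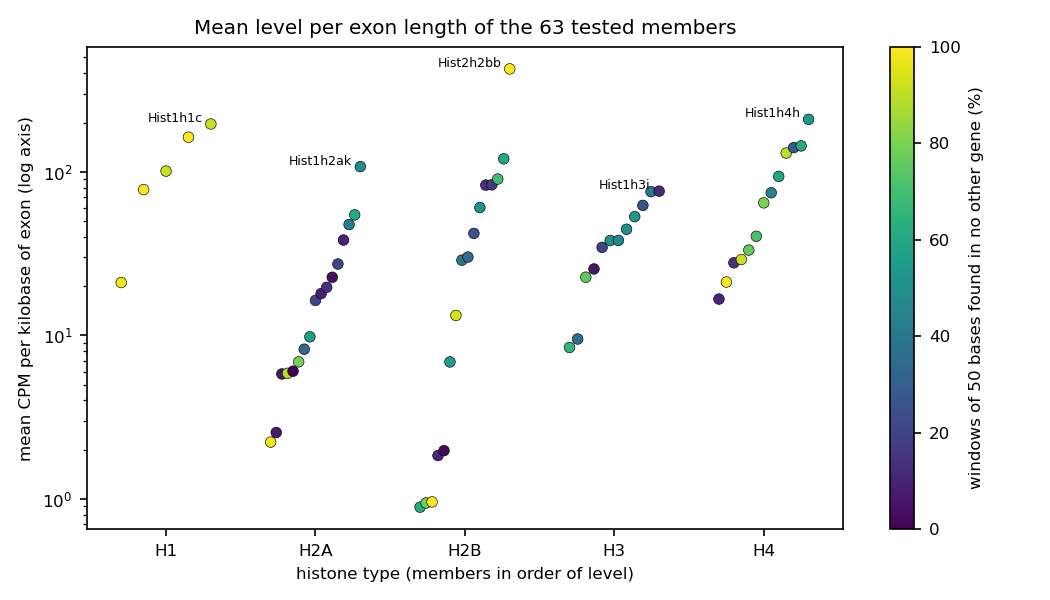
Mean CPM per kilobase of exon (log axis) of the 63 tested members by type; colour is the share of windows of 50 bases found in no other gene. Levels within H2B run from 0.889 for Hist1h2ba to 426 for Hist2h2bb.

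The first test asked for any difference between time points. In edgeR's quasi-likelihood test of the 9 time points, 5 of 63 tested members had a Benjamini-Hochberg adjusted p under 0.05, where the share over all 12687 genes tested was 18.5%. Hist1h1t and Hist1h2aa did not pass the filter on low counts. Hist1h3c had the smallest adjusted p, 0.00171, with 27.5, 29.2 and 23.1 CPM at 12 h, 22.9, 24.8 and 24.7 at 24 h, 36.8, 42.3 and 40.9 at 36 h, and 30.4, 33.1 and 30.5 at 60 h. Its 36 h libraries stood above all of 12, 24 and 60 h. Hist1h2bn (adjusted p = 0.0117) had 25.8, 26.7 and 25.5 CPM at 12 h, 25.4, 21.2 and 24.8 at 24 h, 33.7, 39.1 and 54.4 at 36 h, and 25.0, 26.9 and 28.5 at 60 h. Hist1h2ab (adjusted p = 0.0209), Hist1h2bk (0.0370) and Hist1h1a (0.0459) completed the 5. Hist1h2ab had 16.7, 20.8 and 15.5 CPM at 12 h, 26.2, 25.3 and 33.4 at 36 h, and 20.4, 17.8 and 14.8 at 60 h. Hist1h2bk had 13.8, 17.8 and 14.5 CPM at 12 h, 18.8, 26.8 and 33.9 at 36 h, and 18.2, 19.8 and 17.0 at 60 h. In both the 36 h libraries lay above those of 12 h, and the 60 h libraries overlapped them.

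The count depended on the model and the libraries used. With a term for the replicate number in edgeR's fit, 29 of 63 members changed (46.0%), against 40.7% of all genes. Without the 6 libraries the count was 2, Hist1h3c (adjusted p = 0.00875) and Hist1h2bn (0.0126), and without the 36 h libraries it was also 2. It was 2 without replicate 1 of 12 h. It was 3 without replicate 3 of 12 h, replicate 1 or 3 of 24 h, replicate 2 or 3 of 36 h, replicate 1 of 48 h or replicate 1 of 60 h. It was 8 without replicate 1 of 18 h, and 9 without replicate 1 of 30 h, replicate 1 of 36 h or replicate 3 of 48 h. With 1 library left out, 1894 to 2422 of all genes changed, against 2345 with all libraries. Of the 5, Hist1h3c and Hist1h1a have at least 50% of their windows unique, and 3 have fewer.

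Between 12 h and 60 h no member passed edgeR's test, either higher (9.50% of all genes) or lower (6.56%). Before adjustment 3 members (4.76%) had p under 0.05, against 26.6% of all genes. DESeq2 called 2 members higher (10.1% of all genes) and limma-voom 1 (9.53%). Hist1h1c was nearest, with a log2 difference of 0.46 ± 0.160 (SE) and adjusted p = 0.0516, followed by Hist1h1a with 0.51 ± 0.182 and 0.0605. The estimate was above 0 for 56 of 63 members, with a median of 0.18 on the log2 scale against -0.01 over all genes tested. Without the 6 libraries that median was 0.05, and 0 members had an unadjusted p under 0.05. With all but 1 library, 2 members were higher without replicate 2 of 12, 18, 48 or 54 h, and 1 without replicate 1 of 18, 30 or 54 h, replicate 2 of 30 h or replicate 3 of 60 h. Without replicate 3 of 60 h, 1 was also lower. Over all genes, leaving out 1 library gave 909 to 1210 higher and 569 to 901 lower. With a term for the replicate number and all libraries, 4 members (6.35%) were higher, against 16.2% of all genes. In that fit 0 members were lower, against 13.6% of all genes.

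Along the course, 4 members rose in the test of a linear trend (10.7% of all genes rose) and 0 fell (8.72%). Before adjustment 14 members (22.2%) had p under 0.05 for the trend, against 31.2% of all genes. Of the 4, 3 are H1 genes. Hist1h1c changed by 0.48 ± 0.123 on the log2 scale per 48 h (SE, edgeR adjusted p = 0.00645), Hist1h1e by 0.48 ± 0.139 (adjusted p = 0.0131) and Hist1h1a by 0.55 ± 0.159 (adjusted p = 0.0142). Hist1h1a had 43.4, 50.2 and 37.3 CPM at 12 h, 63.6, 76.2 and 71.99 at 36 h, and 61.8, 73.5 and 51.1 at 60 h, so the first and last hours did not overlap. The 4th was Hist1h3c, with 0.43 ± 0.152 (adjusted p = 0.0442). The other H1 genes tested, Hist1h1d (0.34 ± 0.134, adjusted p = 0.0799) and Hist1h1b (0.32 ± 0.162, 0.182), did not pass.

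The rise was lost when some sets of libraries were left out and kept without others. Without the 12 h libraries 0 members rose, where 5.46% of all genes did. The median over the 63 then fell from 0.23 to 0.01, with 33 estimates above 0 in place of 58. Without the 6 libraries 0 rose, Hist1h1c then having 0.27 and adjusted p = 0.120, although 3461 of all genes had a trend there against 2466 with all libraries. Without the 9 libraries numbered 1 the count was also 0, where 6.01% of all genes rose. Without those numbered 2 it was 6 (9.52%, against 8.52% of all genes). Without those numbered 3 it was 9 (14.3% against 7.61%), and without the 36 h libraries 4 (6.35% against 10.9%). Leaving out 1 library at a time left 3 to 7 rising members, the 7 without replicate 3 of 60 h. Over all genes it gave 1135 to 1400 rising and 924 to 1267 falling. With a term for the replicate number and all libraries, 9 members rose (14.3%), against 15.9% of all genes, and 1 fell (1.59%, against 14.8%). A falling trend was called for 0 members without the 6 libraries, and for 1 without replicate 3 of 24, 48 or 60 h or replicate 2 of 30 h. Medians by type were 0.48 for the 5 tested H1 genes, 0.24 for 17 of H2A, 0.22 for 16 of H2B, 0.25 for 12 of H3 and 0.18 for 13 of H4, against -0.01 over all genes. Differences between types were not tested.

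**Figure D5:**
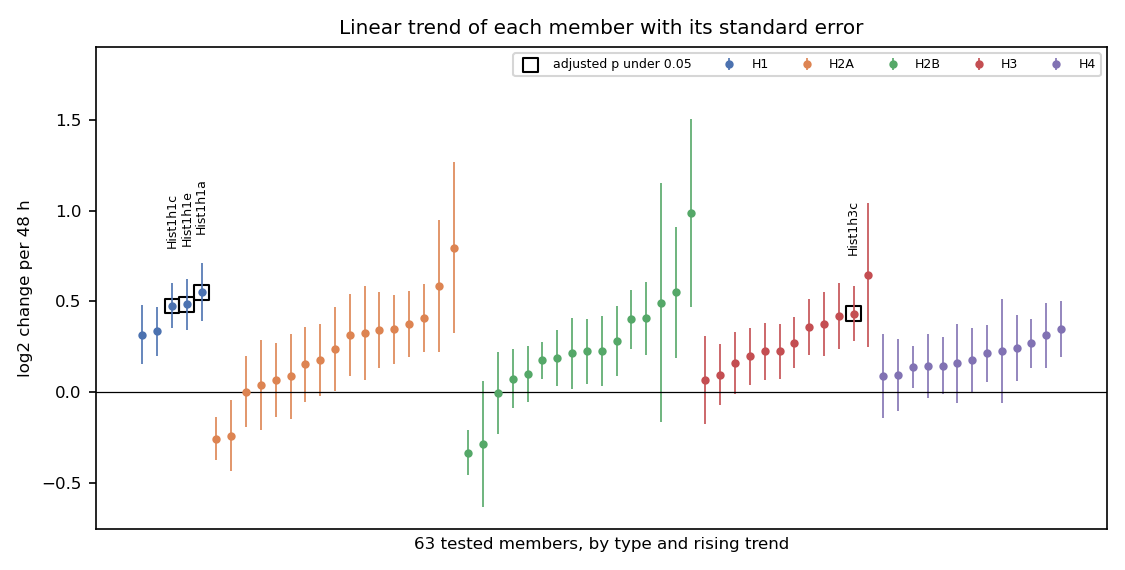
Log2 change per 48 h of each of the 63 tested members from the linear term, with bars of 1 standard error, in order within each type; black squares mark the 4 with an adjusted p under 0.05. Points of 58 members lie above 0, and the 3 H1 genes with the highest estimates and Hist1h3c are marked.

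The 5 members with an estimate below 0 were Hist2h2be, Hist3h2ba, Hist3h2a, Hist2h2ab and Hist1h2bp, and none passed. Hist2h2be, whose message is known to be made as a polyadenylated form also in cells that do not divide, had 2.88, 3.01 and 3.00 CPM at 12 h, 2.75, 2.70 and 2.19 at 36 h, and 1.96, 2.04 and 3.07 at 60 h (trend -0.33 ± 0.124, edgeR adjusted p = 0.0579). Hist3h2a had 4.72, 5.72 and 6.97 CPM at 12 h, 5.16, 5.13 and 4.24 at 36 h, and 4.48, 4.61 and 4.94 at 60 h (trend -0.25 ± 0.119, edgeR adjusted p = 0.141), and its exons overlap Trim17 on the same strand. Hist3h2ba ran from 0.223 to 1.19 CPM with a median of 0.542, and the testis form Hist1h2ba from 0.0425 to 1.36 with a median of 0.287. In these low genes the groups overlapped, and Hist1h2ba changed by 0.49 ± 0.656.

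A 24 h rhythm was not detected in any member. In edgeR's test 0 of 63 had an adjusted p under 0.05 (0.0552% of all genes, 7 in number), and 0 had an unadjusted p under 0.05, the smallest being 0.140. DESeq2 and limma-voom also called 0. The fitted swing, the log2 distance from trough to peak, had a median of 0.14 over the members and 0.10 over all genes, and was under 0.3 for 58 of the 63.

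Lists of related genes give the setting of these levels. Of 50 genes of S phase and DNA replication, edgeR's test called 26 lower at 60 h than at 12 h and 1 higher, and 26 changed over the course. Without the 6 libraries these counts were 33, 1 and 30. Mcm6, a subunit of the replicative helicase, fell from 189 ± 8.23 CPM at 12 h to 123 ± 4.94 at 60 h (SD, n = 3), Mcm5 from 95.8 ± 3.95 to 60.8 ± 3.05 and Pold1, a DNA polymerase subunit, from 29.8 ± 2.32 to 19.1 ± 0.564, while the cyclin Ccna2 rose from 89.6 ± 1.09 to 122 ± 4.86. The median of this list was highest at 12 h, 0.19 to 0.41 above its mean on the log2 scale in the 3 libraries, where the histone median was -0.39 to -0.09. Within time points, the library with the highest S phase median was also the one with the highest histone sum at 7 of 9 time points. The lowest library matched at 5 of 9. The counts for highest and lowest were 6 and 3 for the mitosis genes. For histone variants outside the Hist1 to Hist4 clusters they were 6 and 9. The difference between the lists was not tested.

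Of 22 mitosis genes 21 changed, and 17 were higher at 60 h than at 12 h and 0 lower, or 20, 13 and 0 without the 6 libraries. Kif20a, a kinesin of cell division, rose from 82.7 ± 3.22 to 132 ± 8.65 CPM, and Cenpf, a kinetochore protein, from 67.2 ± 1.75 to 112 ± 5.10 (SD, n = 3). The mitosis median was lowest at 12 h, -0.58 to -0.39, and highest at 18 h, 0.05 to 0.53. All 4 tested fibroblast markers were also higher at 60 h (3 without the 6 libraries), for example Col1a2 with 2019 ± 214 CPM at 12 h and 2785 ± 293 at 60 h, and of 11 myotube markers 1 was higher (Myh1) and 1 lower (Myog). The part of cell makeup in the histone levels was not tested.

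Of 26 tested genes that end, regulate or degrade histone messages, 2 changed over the course, Cstf2 and Lsm11 (edgeR adjusted p = 0.0227 and 0.0242), and 2 were lower at 60 h, Slbp and Cstf2. Without the 6 libraries 4 changed and 3 were lower. Slbp, the stem-loop binding protein, fell from 50.4 ± 5.70 to 34.9 ± 2.50 CPM (SD, n = 3). Of 27 histone chaperones 9 changed and 7 were lower at 60 h (8 and 8 without the 6 libraries), among them Chaf1b, a subunit of chromatin assembly factor 1, with 28.9 ± 1.96 and then 19.7 ± 0.515 CPM. Of 11 tested histone variants outside the Hist1 to Hist4 clusters, 2 rose. The linker histone H1f0 went from 172 ± 7.60 to 256 ± 5.69 CPM and the centromere histone Cenpa from 16.6 ± 3.08 to 33.3 ± 3.28. The others, such as H3f3b with 443 ± 49.2 and 467 ± 5.12, did not pass. Without the 6 libraries 2 variants were higher at 60 h, 1 was lower and 3 changed over the course.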

How the data were processed

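The authors deposited 1 table of counts, whole reads per Ensembl gene, for 27 ribosome-depleted, stranded libraries of total RNA. The submitters' processing notes name Trim Galore 0.4.0, cutadapt 1.9.1, featureCounts and the build mm10. For the aligner, the annotation release, the strand setting and reads that fit several places, the answer is not given in the sources used here. GENCODE M21 matched 20318 genes and not 128. Libraries were grouped by the hour and number in their titles. All columns of per-sample values were used.

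Of the table, 12687 genes passed filterByExpr (minimum count 10), and CPM were scaled by TMM. edgeR 4.0.16 (R 4.3.3) quasi-likelihood tests were fitted over all 27 libraries: time point as a factor with 8 contrasts, 60 h against 12 h in the same fit, and a linear trend (per 48 h) with a cosine and sine of 24 h in 1 model. Adjusted p under 0.05 over all genes was called. The common biological coefficient of variation was 11.8%. The scripts were tested on simulated counts. Alternatives used DESeq2 1.42.0, limma 3.58.1 and those under the dependence on processing.

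Members and lists were chosen with earlier results of these data known. Values of every library at 12, 36 and 60 h, or the lowest, median and highest, were given for the 3 members of each type with the highest mean CPM, for up to 4 called members per test, for Hist1h1t, Hist1h2ba, Hist3h2ba, Hist3h2a, Hist4h4 and Hist2h2be, and up to 4 members per list. A member's window was unique if its 50 bases lay in no transcript of a gene elsewhere. Figures used matplotlib 3.10.9.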

Additional observations from a re-analysis of the deposited data

How the results depend on the processing

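The count of members that changed over the course, 5, was 14 with DESeq2, 29 with the replicate block and 1 at adjusted p under 0.01. It was 2 without the 12 h libraries, 2 without the 36 h libraries and 2 without the 6 libraries that stand apart. It was 7 without the 9 libraries numbered 1, 6 without those numbered 2 and 1 without those numbered 3. Leaving out 1 library gave 2 to 9. For 60 h against 12 h, 0 members were higher; this was 2 with DESeq2, 1 with limma-voom, 1 with median of ratios scaling, 4 with the replicate block, 2 without the libraries numbered 2 and 0 to 2 leaving out 1 library. The 0 that were lower became 1 without the libraries numbered 3 and 0 to 1 leaving out 1. The 4 with a rising trend became 9 with the replicate block, 1 at adjusted p under 0.01, 0 without the 12 h libraries, 0 without the libraries numbered 1, 9 without those numbered 3, 10 with the block and a term for alternate time points, 0 without the 6 libraries and 3 to 7 leaving out 1. The 0 with a falling trend became 1 with limma-voom, 1 with the block, 1 without the libraries numbered 3, 1 with the block and the alternate term and 0 to 1 leaving out 1. The rhythm stayed at 0 under all alternatives run. The ratio of summed CPM, 1.19, was 1.12 to 1.27 leaving out 1 library. Beside these counts, the share of all genes that changed was 23.3% with DESeq2 (members 22.2%), 40.7% with the replicate block (members 46.0%) and 12.1% at adjusted p under 0.01 (members 1.59%). With the block, 16.2% of all genes were higher at 60 h (members 6.35%), 15.9% rose (members 14.3%) and 14.8% fell (members 1.59%). With the block and the alternate term 16.7% rose (members 15.9%) and 15.7% fell (members 1.59%). Without the libraries numbered 3, 7.61% rose (members 14.3%), 6.45% fell and 3.74% were lower at 60 h (members 1.59% in both). Without those numbered 2, 7.12% were higher (members 3.17%), and with median of ratios scaling 9.59% (members 1.59%). With limma-voom 8.62% fell (members 1.59%). The causes were not tested. No member's call changed direction. Of 40 alternatives, the call of change was kept in 39 for Hist1h3c, 38 for Hist1h2bn and 32 for Hist1h2ab. It was kept in 21 for Hist1h2bk and 18 for Hist1h1a. Of 43 alternatives, the rising call was kept in 40 for Hist1h1c, 39 for Hist1h1e, 39 for Hist1h1a and 20 for Hist1h3c.

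Libraries with the same number deviated together in part: 26 of 27 correlated best with their own number. The median correlation of same-number pairs was 0.331, and 91 of 108 pairs exceeded 0.1. The labels do not say what the number marks, so the main tests hold no term for it. Their p-values therefore include the spread between numbers, which the counts with the replicate block leave out. The alternatives without whole sets of numbered libraries, without 36 h, without the 6 libraries, and with the block and alternate term were chosen after seeing the data. At this depth members under 1 CPM rest on few reads.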

Other observations

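The order of the libraries within a time point was compared with that of other lists. One list held histone variants outside the Hist1 to Hist4 clusters, among them H2afx and Cenpa. There the library with the lowest summed histone CPM was also the lowest in the list's median at 9 of 9 time points. The highest was the highest at 6. These counts were 5 and 7 for the S phase list, 3 and 6 for mitosis, 3 and 4 for histone chaperones, 4 and 3 for histone mRNA processing, 5 and 2 for myotube markers, 4 and 3 for fibroblast markers, and 3 and 3 for myoblast markers. With 3 libraries at each time point, an order unrelated to the histones matches at 3 of 9 on average. These are descriptions of the same libraries, with no test.

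Near-identical copies also gave the steepest single estimates. Hist1h2bq, with 2.68% of its windows unique, had a trend of 0.99 on the log2 scale per 48 h, the highest of the 63 tested members, and 4 of the 6 libraries that give it the larger share of its pair are of 42 h or later. The 33 tested members with at least 50% unique windows had a median trend of 0.21 and held all 4 rising calls, and the 30 others had a median of 0.23 and none. The median standard error was 0.162 in the first set and 0.205 in the second. The difference between the sets was not tested.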
